A study of Mus musculus with 2 samples.

Results

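Sox genes encode transcription factors, and 10 of them were compared here for H3K27me3 in mouse rib chondrocytes: Sox5, Sox6 and Sox9, which act in cartilage, Sox1, Sox2, Sox3 and Sox14, which act in the nervous system, Sox17 and Sox18, which act in endoderm and endothelium, and Sox8. A member was taken from the deposited list of H3K27me3 regions wherever that list gave its symbol, and a gene that no region named counted as without a listed region. Regions named 2 of the 10 genes, Sox14 and Sox2, with 3 regions each. These were 6 of the 2017 regions and 2 of the 922 named genes of the list. The study also has longer lists of H3K27me3 regions, which were not analysed here, so that a gene called not named is so in this list only. None of Sox5, Sox6 and Sox9 was named (0 of 3), against 2 of the 7 other members (28.6%). With so few genes these 2 shares cannot be told apart, and the members were chosen with earlier results known. Over all protein-coding RefSeq genes the share was 3.90%, from which 0 of 3 cannot be told apart.

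The cells were chondrocytes from the ribs of 11 wild-type CD1 mice of age P2.5, pooled, cultured overnight in DMEM with antibiotics and, per the labels, 5% FCS. H3K27me3 was measured by ChIP-seq, in which chromatin is pulled down with an antibody to the mark and the DNA is sequenced. There was 1 ChIP library and 1 library of input DNA (2% of the chromatin without the pull-down), and no replicates, so no difference was tested and every interval covers counting error only. Because chromatin from many cells was pooled, a strong mark in part of the cells and a weak mark in all of them cannot be told apart.

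The Sox family is defined by a shared DNA-binding domain, the HMG box, and is divided into subgroups by sequence. Sox9 sets and maintains chondrocyte identity, and Sox5 and Sox6 act with it on cartilage matrix genes, whereas Sox1, Sox2 and Sox3 keep neural progenitors undifferentiated and Sox14 acts in later interneurons. H3K27me3 is placed on histone H3 by the Polycomb complex PRC2, which is known for holding lineage genes of other tissues silent, often at starts rich in CG pairs.

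The starts of 4 Sox genes are printed because they differ in CG pairs and in how the listed regions lie to them: a region covered the 5′ end of Sox14 and of Sox21 (a relative of Sox14), regions lay on either side of Sox2 but not over it, and no region named Sox5. Each sequence runs from 250 bases before to 50 bases after the RefSeq start, 5′ to 3′ on the strand of the gene, with each CG pair in capitals. They come from RefSeq on GRCm38.p6, which is not the build of the regions (mm9), so their positions were not set against those of the regions. The places are chr9:99876121-99876420 for Sox14, chr14:118236981-118237280 for Sox21 and chr6:143947057-143947356 for Sox5, all on the minus strand, and chr3:34649745-34650044 on the plus strand for Sox2.
Sox14: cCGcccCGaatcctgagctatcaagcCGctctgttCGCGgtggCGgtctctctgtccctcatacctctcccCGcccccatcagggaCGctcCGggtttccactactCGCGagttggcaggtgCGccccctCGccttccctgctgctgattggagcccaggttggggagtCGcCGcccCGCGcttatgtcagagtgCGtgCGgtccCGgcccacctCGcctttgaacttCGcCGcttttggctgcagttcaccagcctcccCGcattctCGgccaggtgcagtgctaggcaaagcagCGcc
Sox21: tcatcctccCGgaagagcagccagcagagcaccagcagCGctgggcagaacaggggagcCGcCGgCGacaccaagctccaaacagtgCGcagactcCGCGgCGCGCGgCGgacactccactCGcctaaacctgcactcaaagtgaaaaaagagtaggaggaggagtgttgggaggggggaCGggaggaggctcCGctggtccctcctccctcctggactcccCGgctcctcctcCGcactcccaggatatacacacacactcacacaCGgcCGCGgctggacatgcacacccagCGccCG
Sox2: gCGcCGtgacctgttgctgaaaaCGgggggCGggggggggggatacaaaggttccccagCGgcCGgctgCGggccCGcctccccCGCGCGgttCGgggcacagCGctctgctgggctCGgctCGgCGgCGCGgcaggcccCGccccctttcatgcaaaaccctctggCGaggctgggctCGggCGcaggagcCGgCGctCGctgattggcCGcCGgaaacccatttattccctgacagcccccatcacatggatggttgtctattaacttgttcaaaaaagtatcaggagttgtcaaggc
Sox5: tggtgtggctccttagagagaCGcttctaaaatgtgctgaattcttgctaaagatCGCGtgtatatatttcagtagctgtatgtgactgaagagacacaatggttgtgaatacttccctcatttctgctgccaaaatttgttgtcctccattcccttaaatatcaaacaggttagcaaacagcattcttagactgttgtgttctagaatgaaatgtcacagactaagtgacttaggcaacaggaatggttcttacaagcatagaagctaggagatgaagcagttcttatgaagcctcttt

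The letters CG, which read the same on both strands, occurred 26 times in the Sox14 promoter, 22 times in that of Sox21, 27 times in that of Sox2 and 3 times in that of Sox5. Of the 32851 promoters in the table, 16.9% held at least as many as Sox14, 23.1% as many as Sox21, 15.5% as many as Sox2 and 76.7% as many as Sox5. The median of all promoters was 7 CG pairs, and it was 17 over the 455 promoters of genes with a listed region within 2500 bp of the 5′ end. CG pairs did not separate the named Sox genes from the rest. The Sox1 promoter held 37, and among genes that no region named, Sox8 held 21, Sox13 held 40 and Sox12 held 47. Sox6 had 6 promoters in the table with 2 to 13 CG pairs. For Sox5 only the printed start was used, and other starts of the gene were not examined. The promoters of Sox3, Sox7, Sox9, Sox10, Sox17 and Sox18 were not used here.

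In the list, a region carries the tags (sequenced fragments) counted in ChIP and in input, the height of the smoothed ChIP profile and any gene within 5000 bp. Over all 2017 regions the ratio of ChIP to input tags was 7.47 (7.36 to 7.58, a 95% Clopper-Pearson interval like those that follow), and the median region held 56 ChIP and 7 input tags. The depth of the libraries is unknown from the list, so no ratio was adjusted for it. No listed region had a ChIP height below 8.0 or fewer than 20 ChIP tags, so weaker signal at a Sox gene would not appear. Whether the annotation behind the list held each of the 10 genes is not given in the sources used here. As a background for the counts of Sox genes, regions named 855 of 21900 protein-coding RefSeq genes, or 3.90%.

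Sox14 encodes a SoxB2 factor of interneurons. It had the most marked sequence of the members, with 6403 bp in its 3 regions on chromosome 9. These held 313 ChIP and 37 input tags, a ratio of 8.46 (6.0 to 12.2). Of the 922 named genes, 56 had more bp in regions and 93.8% had fewer, and the median gene had 1535 bp. The list places the gene on the minus strand of mm9 with its 5′ end at 99776589 and its 3′ end at 99774535.

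The region over the start of Sox14 (chr9:99774706-99777642) reached from position -1053 to position 1883 relative to the 5′ end, and had 147 ChIP and 21 input tags, a ratio of 7.0 (4.41 to 11.6). Its highest point lay at position -721, on the promoter side. The next region (chr9:99772247-99774636) began 70 bp further on, covered the 3′ end and ended 4342 bp from the 5′ end. It had 116 ChIP and 16 input tags, a ratio of 7.25 (4.28 to 13.1). Together these regions covered 96.6% of the gene, or 1984 of 2054 bp, so nearly the whole gene and its start lay in listed sequence.

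The region farthest downstream of Sox14 (chr9:99770929-99772007) followed after 240 bp and had 50 ChIP and 0 input tags. With a count of 0 the ratio has no upper bound, and the lower end of its interval was 13.1. It lay 2528 bp past the gene. A further region, which named no gene (chr9:99763813-99764627), followed after 6302 bp with 41 ChIP and 2 input tags. The 3 Sox14 regions differed in length (2936, 2389 and 1078 bp) far more than in density, which was 50.1, 48.6 and 46.4 ChIP tags per kb. The median of all regions was 54.5 ChIP tags per kb, and 22.0%, 14.9% and 5.11% of regions were below the 3 values in that order. Sox14 was thus listed as long stretches at a density under the median of the list. That median covers regions of every length, and density was not compared among regions of similar length.

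The genes with a total length and density nearest to those of Sox14, by Euclidean distance on a log2 scale over these 2 summed values, were Otx2, Otop2, Barhl2, Tbx15 and Kcnk4. Their distances ran from 0.0519 to 0.101. Otx2, a homeobox factor of the anterior brain, had 6215 bp in 3 regions with 310 ChIP and 32 input tags. Otop2, an otopetrin proton channel, had 6354 bp in 2 regions with 322 and 59 tags, and Barhl2, a homeobox factor of neurons, had 6794 bp in 4 regions with 334 and 58. Tbx15, a T-box factor of the limb and skeleton, had 6087 bp in 4 regions with 287 and 54, and Kcnk4, a potassium channel, had 6018 bp in 3 regions with 304 and 52. The 5 genes were thus of several kinds.

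Sox2, the SoxB1 factor of pluripotent and neural progenitor cells, had 2927 bp in 3 regions on chromosome 3, with 160 ChIP and 19 input tags. The ratio was 8.42 (5.22 to 14.4). This interval contains that of Sox14, so a difference in ratio between the 2 genes was not detectable with these tags. The regions were arranged differently. No Sox2 region overlapped the gene or came within 2500 bp of its 5′ end (34548927 on the plus strand), whereas 2 of the 3 Sox14 regions did both. In the whole list, 63.8% of named genes had a region that overlapped them and 56.1% had one within 2500 bp of the 5′ end.

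Upstream of Sox2, a region (chr3:34543786-34544742) had 53 ChIP and 10 input tags, a ratio of 5.30 (2.67 to 11.7), and ended 4185 bp before the 5′ end. A second upstream region (chr3:34545088-34545707) had 36 ChIP and 3 input tags, a ratio of 12 (3.79 to 60.9), and ended 3220 bp before it. The region downstream (chr3:34556270-34557622) had 71 ChIP and 6 input tags, a ratio of 11.8 (5.18 to 33.3). It began 4888 bp past the 3′ end, close to the limit of 5000 bp at which the list stops naming a gene. Between the regions lay 10563 bp with no listed region, and the whole gene fell in that stretch.

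All 3 Sox2 regions also named Sox2ot, a long non-coding RNA gene that overlaps Sox2 on the same strand. Sox2ot had 5 regions and 6810 bp, with 357 ChIP and 38 input tags, a ratio of 9.39 (6.71 to 13.5). The 2 regions that named it alone lay past Sox2. One (chr3:34558719-34561488) had 137 ChIP and 17 input tags, a ratio of 8.06 (4.85 to 14.2), and the other (chr3:34569063-34570177) had 60 ChIP and 2 input tags, a ratio of 30.0 (7.95 to 253). The Sox2 gene thus had 2 listed regions before it and 3 after it, all inside Sox2ot and none over Sox2 itself.

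**Figure D1:**
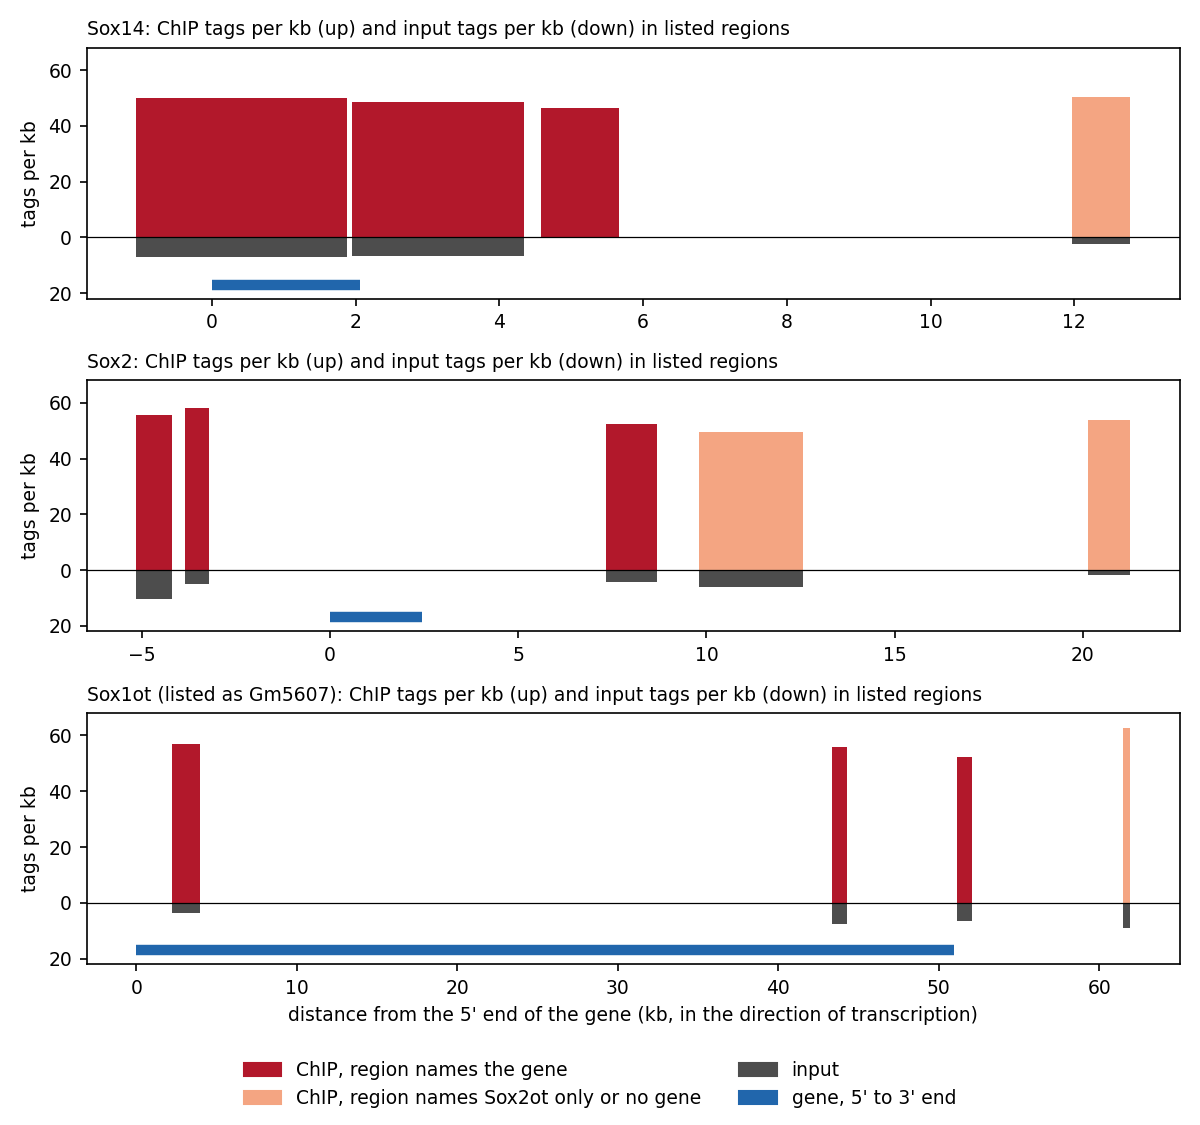
ChIP tags per kb (up) and input tags per kb (down) in listed regions, against distance from the 5′ end in kb, for Sox14, Sox2 and Sox1ot, with the gene as a blue bar. The Sox14 regions lie over and behind the gene, the Sox2 regions leave 10563 bp around the gene without a region, and the Sox1ot regions lie near both of its ends. Paler bars are regions that named Sox2ot alone or no gene.

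Sox1, which acts in neural progenitors and the lens, was not named itself. The list did name Gm5607, a symbol that RefSeq gives as a synonym of Sox1ot, a long non-coding RNA gene that overlaps Sox1 in the RefSeq gene order. This gene was chosen after its values were seen, and it was not counted as a member. It had 3 regions and 3575 bp on chromosome 8, with 198 ChIP and 19 input tags, a ratio of 10.4 (6.5 to 17.7). On mm9 the list places its ends at 12385771 and 12436731 on the plus strand.

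The Sox1ot region nearest its start (chr8:12388006-12389714) lay 2235 bp past the 5′ end, with 97 ChIP and 6 input tags, a ratio of 16.2 (7.16 to 45.1) and a height of 11.5. After 39383 bp without a region came one near the end of the gene (chr8:12429097-12430025) with 52 ChIP and 7 input tags. The last (chr8:12436916-12437855) lay just past the gene with 49 ChIP and 6 input tags. Where Sox1 lies among these regions was not determined, since no mm9 annotation was used here. The next 4 regions on the chromosome named no gene and had 28 to 73 ChIP tags and 4 to 12 input tags.

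Among the 20 Sox genes, RefSeq lists genes that overlap Sox5, Sox6, Sox21, Sox4 and Sox15 as well, and no region named any of those. Of the genes directly beside a Sox gene in the RefSeq order, the list named 1, Etnk2 beside Sox13. Sox5, Sox6 and Sox9 had no named gene beside or over them. Whether the annotation behind the list held these neighbours is not given, and a gene that it lacked could not be named.

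The heights of the 6 regions at Sox14 and Sox2 were all under the median of the list. The share of all regions with a lower height ran from 12.8% to 46.6%. The 6 heights ran from 8.13 to 8.62, with a median of 8.51, against a median of 8.68 and a highest value of 23.7 over all regions. A height of at least 9 was reached by 0 of the 6 and by 35.3% of all regions. By significance the regions were spread out. The −log10 q was 113 at the start of Sox14, which ranked 166 of 2017 regions, and 85.2 at rank 342 and 33.5 at rank 1522 in the other Sox14 regions. The Sox2 regions ranked 758, 1048 and 1517. The regions with most tags and length therefore ranked high although their profiles rose little above the lowest listed height. Both named members had at least 3 regions, a count reached by 15.9% of named genes.

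**Figure D2:**
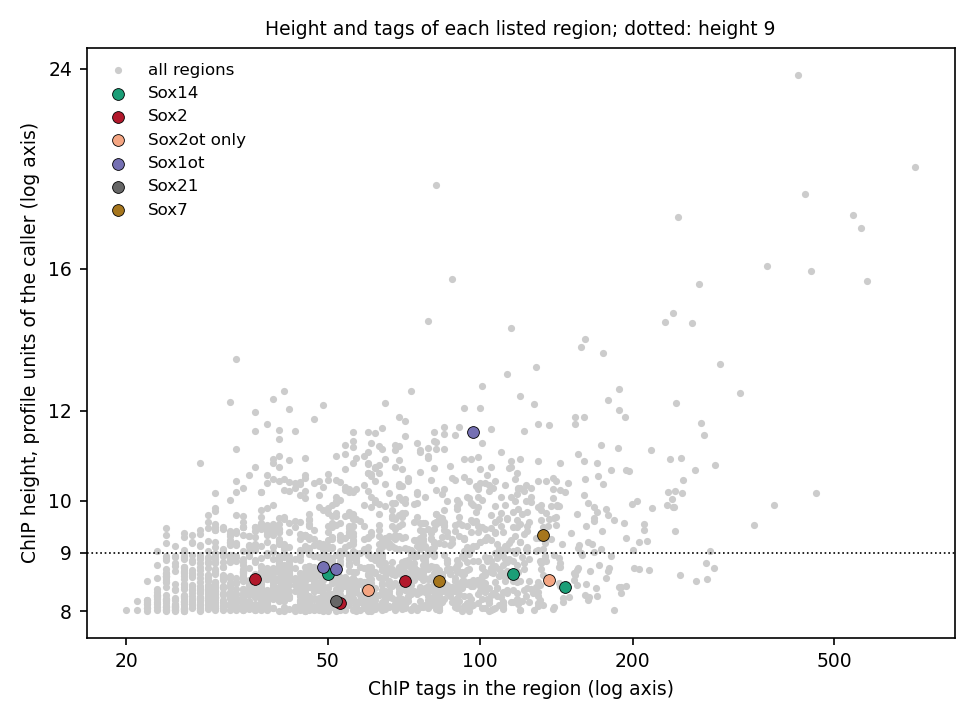
ChIP height in profile units of the caller against ChIP tags for each listed region, both on log axes, with regions at Sox loci in colour and a dotted line at a height of 9. The 6 regions at Sox14 and Sox2 lie below the line at heights of 8.13 to 8.62, and 1 Sox1ot region (11.5) and 1 Sox7 region (9.34) lie above it.

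The deposited ratio sets input to at least 9.20 tags per kb, a floor found from the values and reached in 1552 regions. On that scale the Sox14 regions had ratios of 5.44, 5.27 and 5.04, all under the median of the list (5.70). All 3 had input under the floor, so these ratios restate their ChIP tags per kb. The region with 0 input tags had the lowest of the 3, as it did in density. The Sox2 regions had 5.30, 6.31 and 5.70. Taken over both genes, the plain ratio of tags was 8.45 (6.39 to 11.4) and its interval included the value of all regions.

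**Figure D3:**
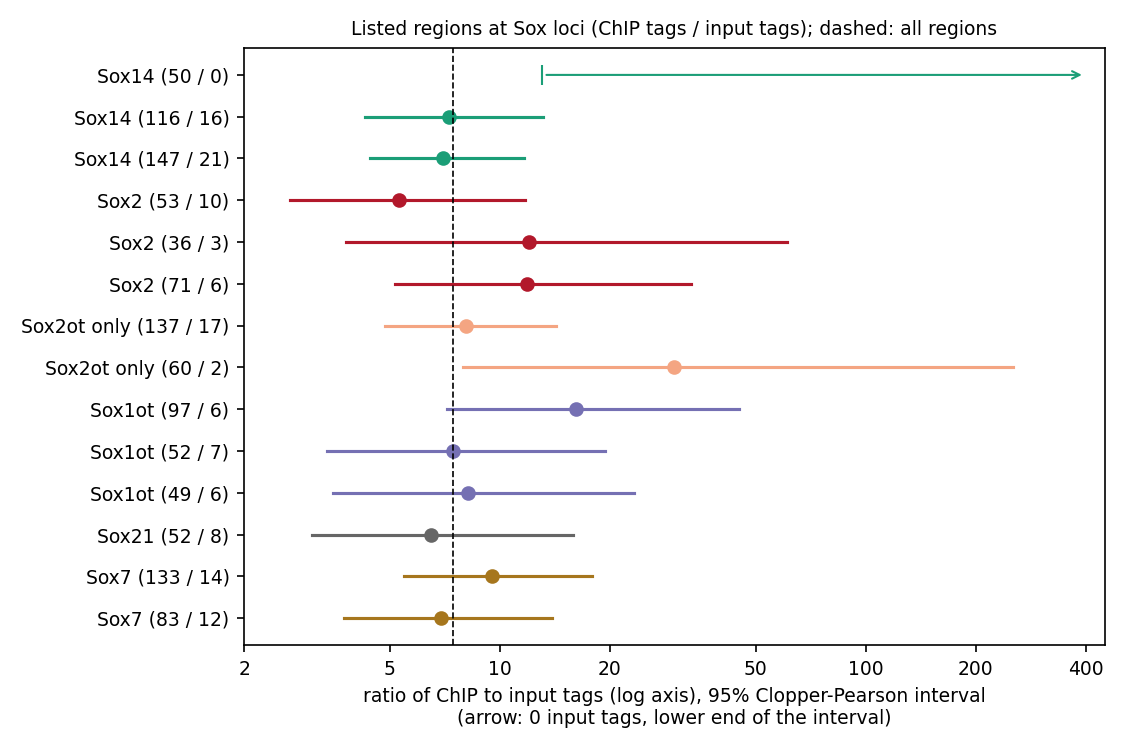
Ratio of ChIP to input tags on a log axis for each listed region at a Sox locus, with the tags in brackets, points for the ratio, bars for the 95% Clopper-Pearson interval and a dashed line at the ratio of all regions (7.47). Of the regions with input tags, the interval crosses the line in all but the Sox2ot region with 60 and 2 tags, and the arrow marks the Sox14 region with 0 input tags, drawn from 13.1, the lower end of its interval.

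Of the chondrogenic members, Sox9 is the central regulator of cartilage, and Sox5 and Sox6 are SoxD factors that act with it. Regions named 0 of these 3, a share that cannot be told apart from the background of 3.90% with so few genes. The other SoxE genes, Sox8 and Sox10, and the other SoxD gene, Sox13, were not named either. Sox17, a factor of definitive endoderm and of endothelium, and Sox18, a factor of lymphatic endothelium, were also without a listed region (0 of 2). The neural members were the ones with listed regions, 2 of 4 (50%), and Sox3, a SoxB1 gene on the X chromosome, was not among them. With so few genes, 2 of 4 cannot be told apart from 0 of 3.

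The other 10 Sox genes of the mouse were looked up in the same way, and 2 were named. Sox21, the second SoxB2 gene, had 1 region over its 5′ end (chr14:118636205-118637105) with 52 ChIP and 8 input tags, a ratio of 6.5 (3.07 to 15.8). An unnamed region with 131 ChIP and 21 input tags lay 10732 bp from it. Sox7, a SoxF relative of Sox17 and Sox18 that acts in endothelium, had 2 regions with 216 ChIP and 26 input tags, a ratio of 8.31 (5.52 to 13.0). Its first region (chr14:64564307-64566519) began 1764 bp past the 5′ end, had 133 ChIP and 14 input tags and ranked 104.

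By subgroup, regions named both SoxB2 genes (2 of 2), 1 of 3 SoxB1 genes and 1 of 3 SoxF genes. SoxC, SoxD and SoxE had 0 of 3 each, and Sry, Sox15 and Sox30 were not named. The SoxB genes thus had 3 of 5 named (60%) and the remaining Sox genes 1 of 15 (6.67%), beside 3.90% of all protein-coding genes. The grouping was chosen with these results known, and no test was applied to it.

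Genes that work with these Sox factors were counted in the same list. Of 13 cartilage matrix genes taken as targets of Sox9, among them Col2a1 and Acan, 0 were named. This share cannot be told apart from the 3.90% of all protein-coding genes. Of 15 neural factors, 8 were named (53.3%): Six3 with 493 ChIP and 53 input tags, Neurog1 with 455 and 50, Otx2 as above, Nkx2-2 with 267 and 36, Pou3f1 with 142 and 13, Pax6 with 132 and 21, Olig2 with 102 and 15, and Nkx6-1 with 79 and 3. Six3 and Neurog1, which act in the forebrain and in sensory neurons, thus had more tags than Sox14, and Pou3f1, Pax6, Olig2 and Nkx6-1 fewer than Sox2. No region overlapped Pou3f1 or Olig2, where the nearest lay 4720 and 2958 bp from the 5′ end. The other named neural factors each had at least 1 overlapping region.

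Of 12 endoderm factors, 8 were named (66.7%, beside 3.90% of all protein-coding genes), although Sox17 was not. Among them, Cdx2, a homeobox factor of the intestine, had 345 ChIP and 37 input tags, Gata4 had 272 and 33, and Gata6 had 157 and 8. Pdx1, a factor of the pancreas, had 130 and 16, Eomes had 109 and 15, Foxa1 had 81 and 11 and Gsc had 25 and 5. The absence of Sox17 from the list was therefore not shared by most of the factors counted with it. Regions overlapped Cdx2, Gata4, Gata6, Pdx1 and Eomes. None overlapped Foxa1 or Gsc, whose regions lay 3379 and 4760 bp from the 5′ end.

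Of 11 endothelial and lymphatic genes, 2 were named (18.2%, beside 3.90% of all protein-coding genes). Prox1, the regulator of lymphatic identity that acts downstream of Sox18, had 327 ChIP and 45 input tags, and Flt1, a VEGF receptor, had 83 and 7. Of 9 other chondrocyte regulators, 2 were named (22.2%, beside the same 3.90%). Barx2 had 49 ChIP and 0 input tags, and Ihh, the hedgehog ligand of prehypertrophic chondrocytes, had 63 and 16, a ratio of 3.94 (2.25 to 7.30). Neither region overlapped its gene, and they lay 390 bp from the 5′ end of Barx2 and 4579 bp from that of Ihh. Runx2 and Runx3, which drive hypertrophy, were not named.

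**Figure D4:**
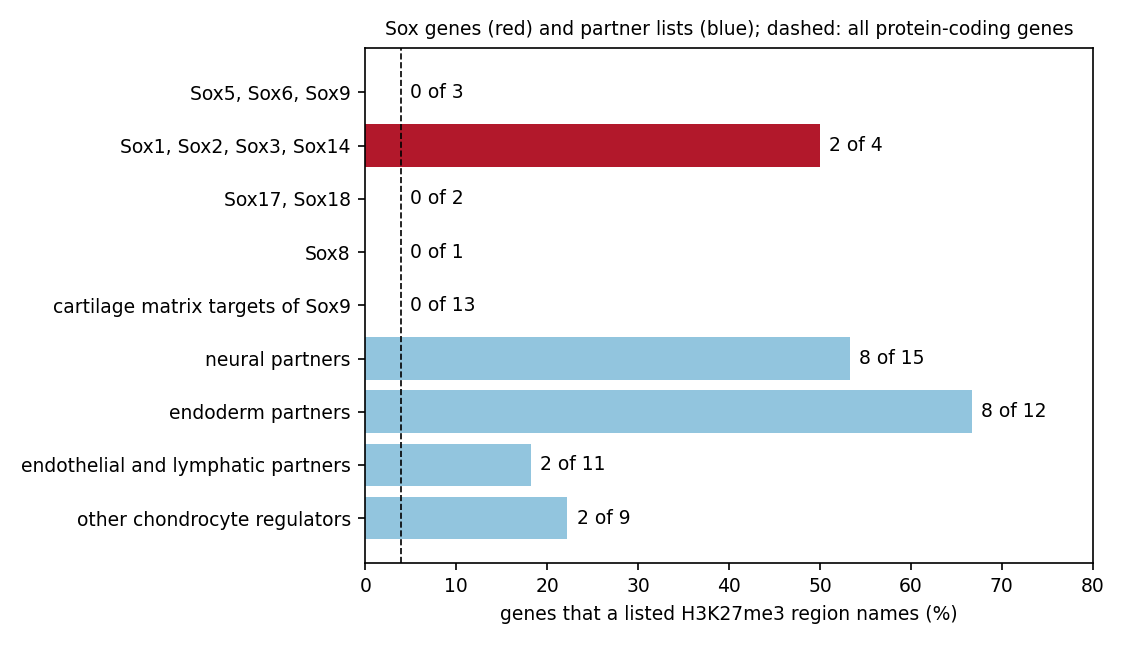
Share of genes in percent that a listed region named, for the groups of Sox genes (red) and for the lists of genes that work with them (blue), with the count beside each bar and a dashed line at 3.90% of protein-coding genes. Neural Sox genes, neural factors and endoderm factors lie between 50% and 66.7%, and the chondrogenic Sox genes and the cartilage matrix genes are at 0. Sox17 and Sox18, and Sox8, are also at 0. Endothelial and lymphatic genes are at 18.2% and other chondrocyte regulators at 22.2%.

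The list measures a histone mark and not expression, so the label of the cells could be set only against whether a region named a marker. None of 7 chondrocyte markers was named, all but Sox9 of them cartilage matrix genes counted above, and beside a background of 3.90% this count does not check the label. Of markers of other cells that a rib preparation can hold, 1 of 4 for osteoblasts (Col1a1, 52 ChIP and 2 input tags), 1 of 3 for skeletal muscle (Acta1, 165 and 25), 0 of 3 for fibroblasts, 0 of 2 for blood and 0 of 2 for endothelium were named. The Col1a1 region did not overlap the gene and lay 280 bp from its 5′ end. The share of other cells in the preparation, and its part in these results, was not tested.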

How the data were processed

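H3K27me3 was measured by ChIP-seq in pooled rib chondrocytes, with 1 ChIP and 1 input library. The authors mapped reads to mm9 with the DNA Nexus mapper and called regions against input with QuEST. The settings are not given in the sources used here. The deposited counts are whole numbers of ChIP and input tags per region, without normalization. The deposited signal gives the peak height of each smoothed profile, for ChIP and for input. The deposited ratio (tag enrichment) is ChIP over input tags per length, in which input never goes under 9.20 tags per kb. The deposited q-values are on a −log10 scale. The deposited list names genes with distances of up to 4979 bp. Whether its positions count from 0 or 1 is not stated.

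From these, regions were counted by gene symbol, and tags were summed per gene. For the share of tags that came from ChIP, a 95% Clopper-Pearson interval was computed and converted to a ratio. It assumes independent tags and accounts for counting error alone. The precision follows from the tags per region, with medians of 56 in ChIP and 7 in input. The interval was tested only on simulated independent tags, which does not check it where tags are not independent. Gene ends on mm9 were worked out from the distances in the list. Of the 922 names, 832 matched a RefSeq symbol of GRCm38.p6, 80 matched by a synonym and 10 did not match. Promoters were from the same release.

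The named genes were every member with its regions, other Sox genes and genes of the lists that a region named, genes sharing a region with a member, and the 5 genes most like the member with most bp. The values of 1 gene of the lists are not reported here. The members and lists were chosen with earlier results of these data known. The labels give 5% serum, whereas the methods of the study give another percentage. Alternatives were limits on −log10 q (50, 100) and on height (9, 10), regions overlapping the gene or within 2500 bp of its 5′ end, regions within 3000 bp merged, and 2 treatments of the floor of input. Counting overlapping transcripts with their Sox gene was added after seeing the data. The tools were scipy 1.17.1, pandas 2.3.3 and numpy 2.4.6 in Python 3.11.15, with matplotlib 3.10.9 for plots.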

Additional observations from a re-analysis of the deposited data

How the results depend on the processing

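The count of chondrogenic Sox genes with a listed region was 0, which limits that only remove regions could not change. The added count of overlapping transcripts took in only Sox1ot and Sox2ot, so it could not change it either. No region named a gene that overlaps Sox5 or Sox6, and RefSeq lists none over Sox9. Whether the annotation behind the list held the genes over Sox5 and Sox6 is not given. The counts of Sox genes (2), of neural Sox genes (2) and of their regions (6) did depend on the limits. With a −log10 q of at least 50, 3 regions remained, and at 100, 1 gene, 1 neural gene and 1 region. With a height of at least 9 or of at least 10, 0 genes, 0 neural genes and 0 regions were counted. Regions overlapping the gene, and regions within 2500 bp of the 5′ end, each left 1 gene, 1 neural gene and 2 regions, those of Sox14. Merging regions within 3000 bp gave 3 regions. Counting overlapping transcripts with their Sox gene, added after seeing the data, gave 3 genes, 3 neural genes and 11 regions. These changes follow from how each alternative selects or joins regions.

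Of 9 recomputed ratios at Sox2 and Sox14, 8 stayed inside the interval of the value reported, and 1, Sox14 with input set to at least the floor, fell to 5.31. The recomputed ratios share tags with the reported values, so this does not measure their stability. A limit on input at 2 times the floor left both ratios unchanged. Settings that left a gene without a region gave no ratio. No paired analysis was possible because there was 1 ChIP library and no replicates. Depth limits the precision most at regions with 0 to 3 input tags, and a mark below the lowest listed height cannot be seen.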
